A study of Mus musculus with 22 samples.

Results

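Mitosis and spindle genes were described here as a list of 44 genes, each represented on the array by the probes whose accession maps to its symbol. All 44 had at least 1 probe, 61 probes in all, out of 20018 genes with a matched probe and 55681 probes on the array. FE1 cells, an epithelial line from the lung of the MutaMouse, were kept for 24 h with the multiwalled carbon nanotube Mitsui7 at 12.5 µg/ml (D1, low dose, 6 arrays), 25 µg/ml (D2, medium dose, 5 arrays) or 100 µg/ml (D3, high dose, 6 arrays), or with vehicle alone (Control, 5 arrays). All groups were the same line, grown with fetal bovine serum and murine epidermal growth factor. The cells were exposed in separate experiments, and the sample labels do not say which arrays share an experiment. RNA of the cells, labelled with Cy5, was hybridised on each array together with Universal Mouse Reference RNA, a pool from mouse cell lines labelled with Cy3. A level below is the log2 ratio of Cy5 to Cy3 on an array, a change is the difference in that log2 ratio from Control fitted with the slide (5 glass slides, each holding several arrays) as a term, and a gene was called when the change had a false discovery rate adjusted P of at most 0.05, was at least 1.5-fold and came from a probe detected on at least 4 arrays of either group.

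Mitosis is run by the kinase Cdk1 with its cyclins, which starts the condensation of chromosomes and the building of the spindle. Kinetochores, protein plates on the centromeres, hold the spindle microtubules through the NDC80 complex, and the spindle assembly checkpoint delays anaphase until every kinetochore is held. The anaphase promoting complex then marks cyclins and securin for destruction, the chromosomes part, and the central spindle guides cytokinesis. Transcripts of most of these genes build up late in the cell cycle, through the MuvB, B-Myb and Foxm1 factors at CHR elements and NF-Y at CCAAT boxes, so a growing culture holds more of them than a resting one.

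Of these genes the kinetochore pair Nuf2 and Spc24 fell, and Nuf2 was lower at every dose. From low to high dose, the log2 change of Nuf2 was -0.61 ± 0.12 (SE), -0.76 ± 0.12 and -1.02 ± 0.12, and Spc24 fell by 0.77 ± 0.11 at the high dose. The checkpoint gene Mad2l1 had 2 of its 3 probes called lower at the high dose, although not its brightest. By brightest probe, the 95% interval of the high dose change of Cdk1, Plk1, Ndc80 and Birc5 lay within 1.5-fold of control either way. No member was called higher at any dose. Since whole cultures were measured, fewer cells in mitosis and less RNA per cell cannot be told apart.

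With each gene given by its brightest probe, 1 member was called lower at the low dose, 1 at the medium dose and 2 at the high dose. Over all genes with a detected probe, 3.06% were called lower and 2.21% higher at the low dose, 4.68% and 4.29% at the medium dose, and 6.44% and 5.47% at the high dose, so the members' counts were near the array's own rate for lower calls. Single arrays weighed on these counts. The low dose count was 0 without control replicate 2 or 5 or low dose replicate 1 or 4, the medium dose count was 2 without control replicate 4 (Mad2l1 added), and the high dose count was 4 without low dose replicate 4, which shares the fit (Bub1b and Mad2l1 added). Without the 1.5-fold limit, 3 members passed at the low dose (Nuf2 and Spc24 lower, Bub3 higher), 2 at the medium dose (Nuf2 and Spc24 lower) and 7 at the high dose (Ccna2, Ccnb2, Cdc25c, Nuf2, Spc24 and Nusap1 lower, Bub3 higher). The corresponding shares of all genes were 5.20% lower and 4.63% higher at the low dose, 7.63% and 7.28% at the medium dose, and 10.8% and 9.99% at the high dose, where the 7 members made up 15.9% of the list beside 20.8% of all detected genes. With the sample number as a block and any size of change, 4 members passed at the low dose (Ube2c added, higher), 4 at the medium dose (Ccna2 lower and Bub3 higher added) and 13 at the high dose, where Bub1b, Cenpa, Kif20a, Mad2l1 and Spc25 were added lower and Racgap1 higher. The 4 members at each of these lower doses were 9.3% of those detected, beside 15.1% (low) and 20% (medium) of all detected genes. At the high dose the 13 were 30.2% of the detected members, beside 27.1% of all detected genes in the same fit. By direction, 11 of the 13 were lower, 25.6% beside 13.4% of all genes, and 2 were higher, 4.65% beside 13.6%.

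The shift of the list as a whole was small and mostly downward. The median change of the members was -0.10 at the low dose, -0.11 at the medium dose and -0.21 at the high dose, beside 0.00056, 0.0013 and 0.0092 over all detected genes. At the high dose 34 of 44 members had a change below 0, or 77.3%, beside 48.7% of all detected genes, and at the low and medium doses 32 and 29 members did. On single arrays the slide-adjusted median of the members, set against the control mean of each gene, ran from -0.098 to 0.041 in the 5 controls and from -0.27 to -0.088 in the 6 high dose arrays, with only control replicate 1 within the range of the high dose. The median log2 ratio over the members on each array, not centred by gene, was also compared within each of the 4 slides that held controls. The high dose minus control difference of these medians lay between -0.25 and -0.12. These are descriptions of a list and carry no test.

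**Figure D1:**
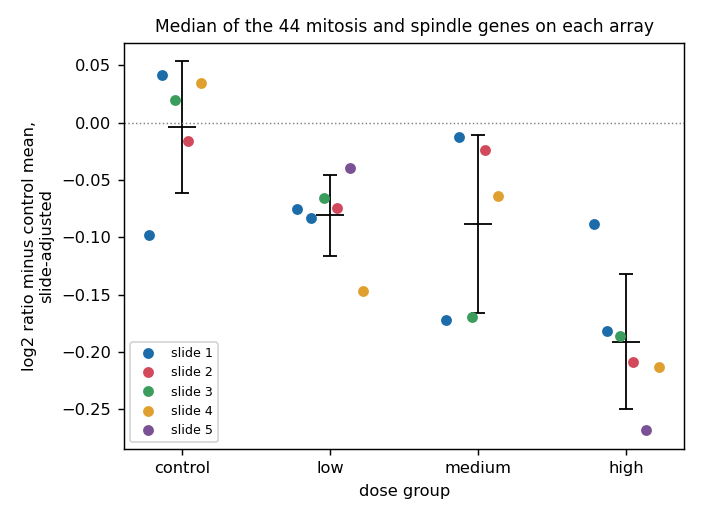
Each point is 1 array, placed by dose group (x axis) and by the median over the 44 mitosis and spindle genes of the log2 ratio minus the gene's control mean, slide-adjusted (y axis, log2 units), with colours for slides and bars for the mean ± SD of the group. The high dose arrays sit between -0.27 and -0.088, and the low and medium dose arrays run from -0.17 to -0.013 and overlap both the controls and the high dose.

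Precision was set by the number of arrays, taken here as independent. The 95% interval of a member's high dose change extended to a median of 0.27 on either side on the log2 scale. For 24 of the 44 members that interval lay wholly within 1.5-fold of control in either direction. It reached a 1.5-fold fall or more for 18 members and a 1.5-fold rise for 2, so for these a change of that size lay within the precision of the arrays. In all, 42 of the 44 probes were detected on all 22 arrays, and no member was saturated on any. Cenpf and Ttk lay near the floor, with median Cy5 signals 1.45 and 1.97 times the negative control level. Aurkb, the kinase of the chromosomal passenger complex, was the member without a detected probe, and is counted among the 44. The intervals of these genes say little about their levels.

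**Figure D2:**
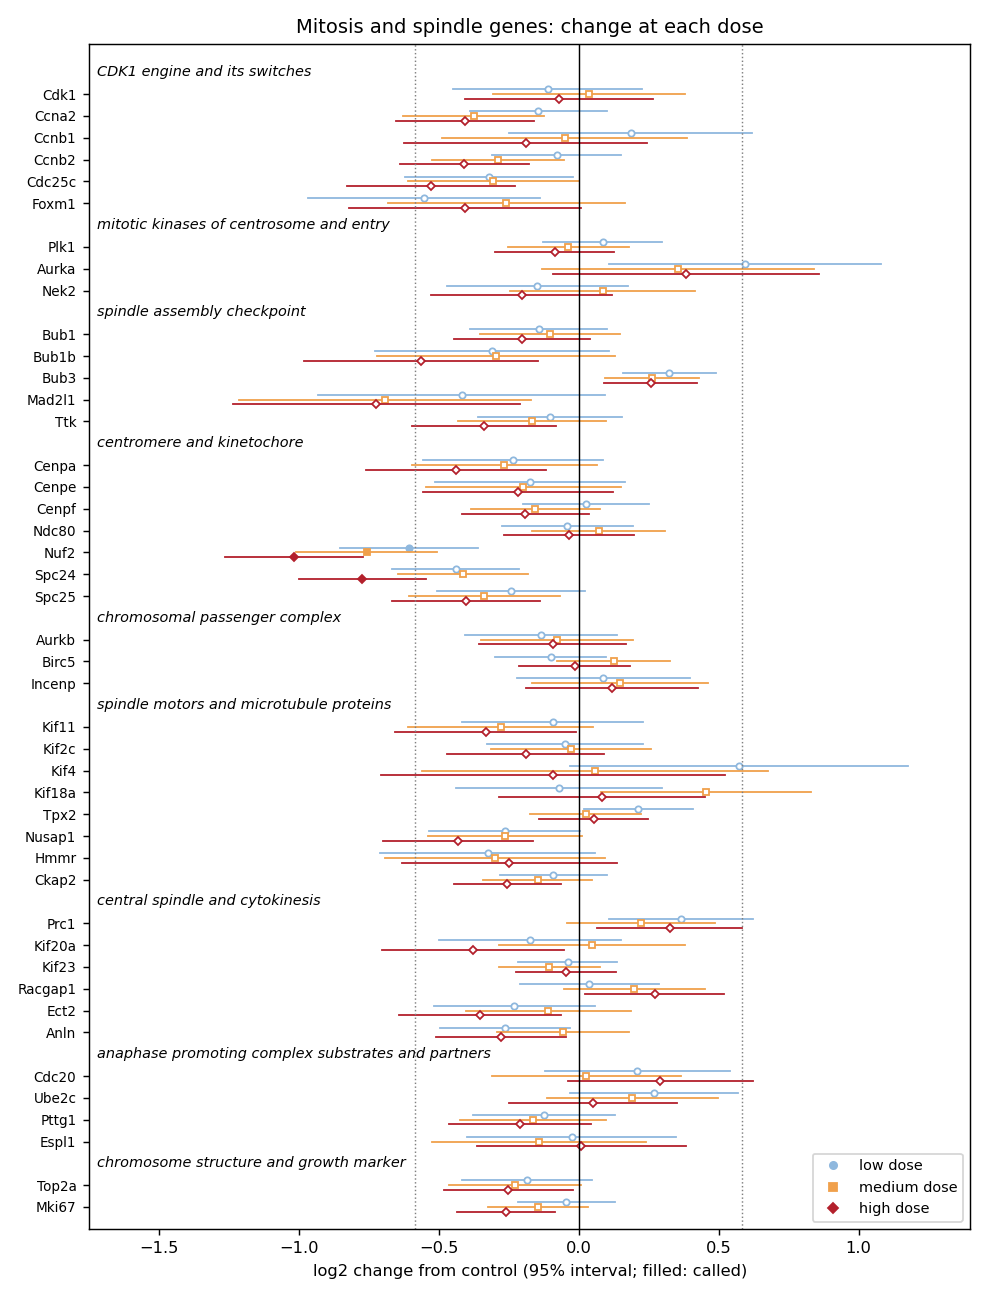
The log2 change from control (x axis) is drawn for each of the 44 genes (rows, grouped by role) at the low, medium and high dose, with 95% intervals from the limma fit, filled symbols for called changes and dotted lines at 1.5-fold. Filled symbols appear for Nuf2 at every dose and for Spc24 at the high dose.

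Promoter sequence was read for the members from RefSeq windows on GRCm38.p6, which matched 36 of the 44 genes and were used apart from the array's own probe coordinates. In the 250 bases before an annotated start, the CCAAT box (CCAAT on either strand) was present in 27 of 36 members, or 75%, beside 37.5% of 27025 genes. The 27025 were all genes with a window, whether or not they were on the array or detected. The members and this background are therefore unlike sets. The CHR element (TTTGAA on either strand) was present in 13 members, or 36.1%, beside 18.3% of all genes, and 12 members held both, 33.3% beside 7.34%. The median high dose change was -0.20 with a CCAAT box and -0.21 without, -0.19 with a CHR element and -0.20 without, and -0.16 with both and -0.20 for the rest, with no test of these differences. The genes without a matched window were Aurkb, Ccna2, Cdc25c, Foxm1, Incenp, Kif20a, Spc24 and Tpx2.

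The stretches below are the 150 bases before the annotated start, 5′ to 3′ on the strand of the gene, with CCAAT and TTTGAA (either strand) in capitals. They show the called gene Nuf2, its partners Ndc80 and Spc25 in the same complex, the cyclin gene Ccnb2, which was lower at the high dose, and Bub3, the member that was higher (first of its 2 annotated starts).
Nuf2, chr1:169531465-169531614, minus strand: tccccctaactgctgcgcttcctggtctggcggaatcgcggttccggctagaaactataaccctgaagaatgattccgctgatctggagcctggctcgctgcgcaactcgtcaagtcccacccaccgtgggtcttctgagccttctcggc
Ndc80, chr17:71526858-71527007, minus strand: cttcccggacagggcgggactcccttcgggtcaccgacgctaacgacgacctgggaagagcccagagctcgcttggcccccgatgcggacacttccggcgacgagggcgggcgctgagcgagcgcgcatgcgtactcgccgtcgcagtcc
Spc25, chr2:69206214-69206363, minus strand: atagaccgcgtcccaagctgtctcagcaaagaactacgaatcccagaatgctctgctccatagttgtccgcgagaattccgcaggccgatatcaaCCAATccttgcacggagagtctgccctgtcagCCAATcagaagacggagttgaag
Ccnb2, chr9:70421555-70421704, minus strand: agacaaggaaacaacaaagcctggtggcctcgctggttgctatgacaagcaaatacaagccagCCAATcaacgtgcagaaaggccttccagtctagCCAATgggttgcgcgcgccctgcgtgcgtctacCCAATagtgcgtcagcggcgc
Bub3, chr7:131560220-131560369, plus strand: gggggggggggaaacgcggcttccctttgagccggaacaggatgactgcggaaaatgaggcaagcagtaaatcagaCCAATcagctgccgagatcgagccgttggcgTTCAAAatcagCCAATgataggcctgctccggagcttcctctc
Nuf2 and Ndc80 held neither motif in this stretch, Spc25 held 2 CCAAT boxes, Ccnb2 held 3, and Bub3 held 2 with 1 CHR element. A match is a string of letters and not evidence of a bound factor.

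The centromere and kinetochore genes held both called members, with a median high dose change of -0.40 over 7 genes, all 7 below 0. Over all detected genes 6.44% were called lower at the high dose. Of 32 other kinetochore and checkpoint genes, 1 was called lower at that dose and their median change was -0.05. Nuf2, a subunit of the NDC80 complex that grips microtubules at the kinetochore, stood above the reference in every control, at log2 ratios of 0.44, 0.71, 0.80, 0.54 and 1.19 for replicates 1 to 5. At the low dose its level ran from -0.15 to 0.56 with a median of 0.19, and at the medium dose it was -0.43, -0.01, 0.03, 0.26 and 0.05. At the high dose it ran from -0.36 to 0.04 with a median of -0.31. Every medium and high dose array was below every control, and so were 5 of the 6 low dose arrays.

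The fall of Nuf2 was 1.52-fold (adjusted P = 0.0044), 1.69-fold (adjusted P = 0.00045) and 2.02-fold (adjusted P = 7.2e-06, limma) at the low, medium and high dose. Within each of the 4 slides with controls the Nuf2 level was lower in exposed than in control cells. The within-slide differences ran from -0.98 to -0.45 for the low dose, from -1.15 to -0.28 for the medium dose and from -1.55 to -0.82 for the high dose. The medium dose adjusted P was 0.072 with median centring in place of loess, and the low dose adjusted P was 0.054 with no slide term, 0.054 with median centring and 0.058 without slide 1. The low dose call also stood close to the 1.5-fold limit and was lost with the sample number as a block, where the change was -0.53 (adjusted P = 0.0027). It was also lost without control replicate 2, control replicate 5, low dose replicate 1 or low dose replicate 4, where the change lay between -0.58 and -0.50. A second Nuf2 probe, A_55_P2174704, was detected on 3 of the 22 arrays and so has no bearing on the level of the gene.

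Spc24, which with Spc25 joins the NDC80 complex to the inner kinetochore, had control levels of 0.046, 0.40, 0.40, 0.75 and 0.91. The low dose levels ran from -0.27 to 0.33 with a median of 0.11, the medium dose levels were -0.0042, -0.079, 0.083, 0.40 and 0.040, and the high dose levels ran from -0.43 to -0.13 with a median of -0.19. All 6 high dose arrays were below every control, while low dose arrays overlapped control replicate 1 and medium dose arrays control replicates 1 and 2. The change was -0.44 ± 0.11 at the low dose (adjusted P = 0.026) and -0.41 ± 0.11 at the medium dose (adjusted P = 0.032), both under 1.5-fold, and -0.77 ± 0.11 or 1.71-fold at the high dose (adjusted P = 6.6e-05). At the low and medium dose the adjusted P of Spc24 was over 0.05 in 16 and 17 of 37 alternatives, with the highest values at 0.16 (slide 2 left out) and 0.68 (median centring), and at the high dose in 0. Within slides the high dose difference of Spc24 ran from -1.13 to -0.57.

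The other subunits of the complex had no call. Spc25 had control levels of 0.74, 0.12, 0.21, 0.18 and 0.23 and high dose levels from -0.68 to 0.29, which overlapped, and its change of -0.40 ± 0.13 had an adjusted P of 0.056. Ndc80, the subunit that binds the microtubule directly, had control levels from -0.31 to 0.053 and high dose levels from -0.61 to 0.17, with a change of -0.03 ± 0.11 and a 95% interval of -0.27 to 0.20. The difference between Nuf2 and Ndc80 on the same array was 0.83 in the controls and -0.03 at the high dose, a shift of -0.86, with controls from 0.38 to 1.5 and high dose arrays from -0.45 to 0.64. That between Spc24 and Spc25 moved by -0.26. Both pairs were chosen after the values were seen, so no P is given for these shifts. The centromere histone Cenpa changed by -0.44, the motor Cenpe by -0.22 and Cenpf by -0.19 at the high dose, none of which passed the test.

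**Figure D3:**
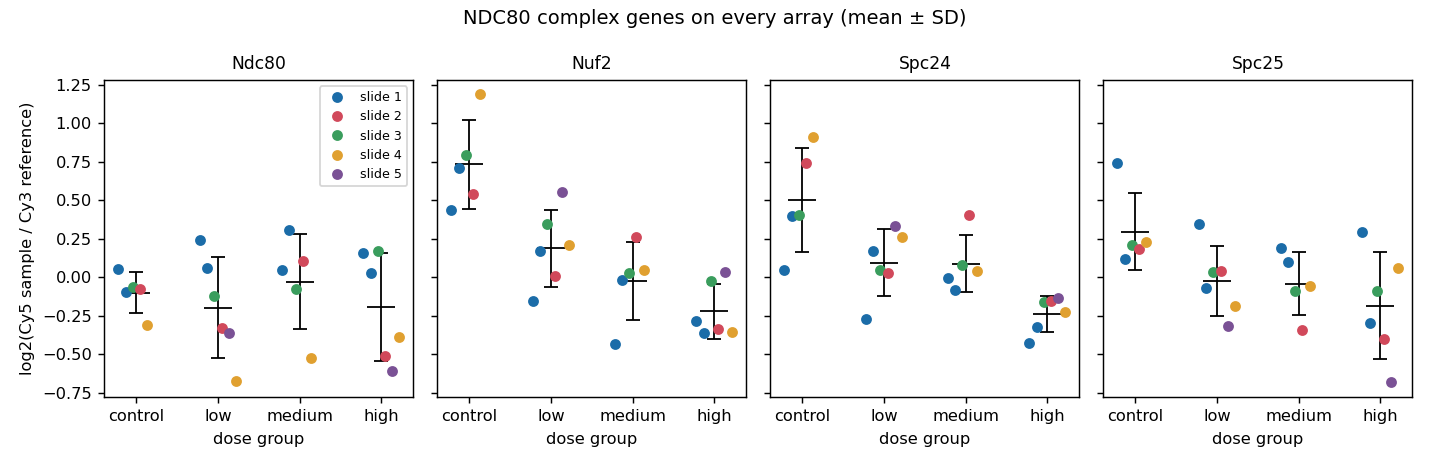
The 4 panels show Ndc80, Nuf2, Spc24 and Spc25 on every array, as the log2 ratio of Cy5 sample to Cy3 reference (y axis) by dose group (x axis), with colours for slides and bars for the mean ± SD. For Nuf2 and Spc24 all 6 high dose arrays lie under the lowest control, and for Ndc80 and Spc25 they overlap the controls.

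In the spindle assembly checkpoint, 4 of 5 genes had a high dose change below 0, with a median of -0.34, and none was called by its brightest probe. Mad2l1 encodes Mad2, which binds Cdc20 and keeps the anaphase promoting complex off. Its brightest probe, A_55_P2133255, varied widely, with levels of 1.19, 0.57, 0.15 and 1.76 in control replicates 1, 2, 4 and 5 and no value in replicate 3, and from -0.17 to 0.91 at the high dose, and its change of -0.72 ± 0.24 had an adjusted P of 0.082. With the sample number as a block this probe was called, at -0.71 (adjusted P = 0.047). The other Mad2l1 probes gave nearly the same change with less spread. A_55_P2138333 read 1.68, 1.43, 1.57, 0.88 and 1.10 in the controls and 0.30 to 0.94 at the high dose, a change of -0.70 ± 0.13 (adjusted P = 0.00081), and A_55_P2179296 read 1.36, 1.41, 1.46, 1.32 and 0.81 and then 0.29 to 1.11, a change of -0.66 ± 0.11 (adjusted P = 0.00034). Both passed every criterion, so counting a gene by any of its probes gave 3 members at the high dose, Mad2l1, Nuf2 and Spc24. The share of all genes was taken by the brightest probe only, so this count of 3 has no like share beside it. At the low dose these 2 probes changed by -0.46 and -0.37 and at the medium dose by -0.40 and -0.26, under 1.5-fold. The high dose arrays overlapped the controls on all 3 probes.

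**Figure D4:**
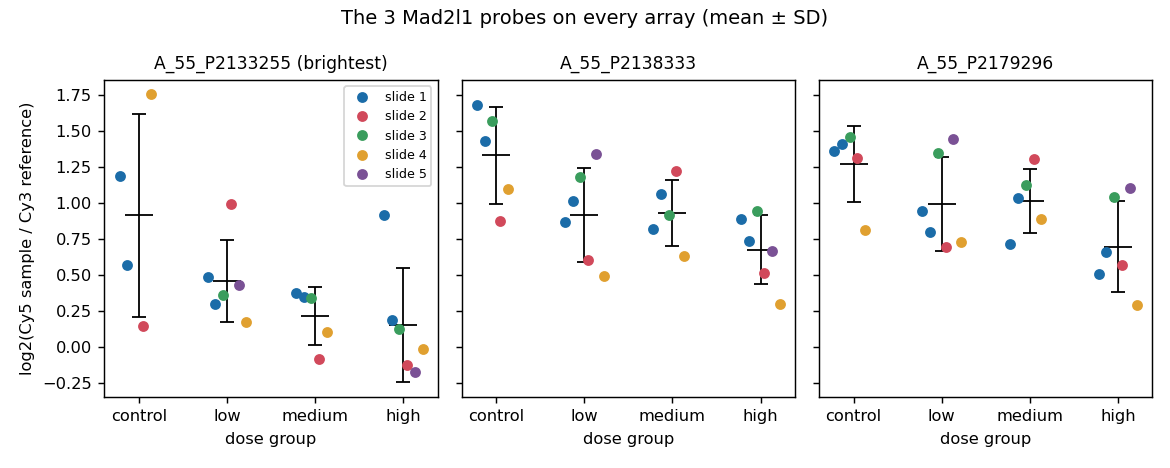
The log2 ratio of Cy5 sample to Cy3 reference (y axis) of the 3 Mad2l1 probes is shown on every array by dose group (x axis), with colours for slides and bars for the mean ± SD. The brightest probe has the widest control spread, from 0.15 to 1.76, and the other probes give high dose changes of -0.70 and -0.66.

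Bub3, a checkpoint protein that carries Bub1 and BubR1 to kinetochores, was the only member that passed the adjusted P in the upward direction at any dose, at less than 1.5-fold. Its control levels were -0.14, 0.085, 0.26, 0.12 and 0.40, its low dose levels ran from 0.24 to 0.78 and its high dose levels from 0.24 to 0.81. The groups overlapped in these levels, while within each of the 4 slides the exposed level was higher, by 0.14 to 0.47 at the low dose and 0.083 to 0.34 at the high dose. The change was 0.32 ± 0.08 at the low dose (adjusted P = 0.024), 0.26 ± 0.08 at the medium dose (adjusted P = 0.068) and 0.26 ± 0.08 at the high dose (adjusted P = 0.0497). Bub1, the kinase that marks centromeres for the checkpoint, lay between -0.75 and -0.53 in the controls and between -1.20 and -0.58 at the high dose, and changed by -0.14, -0.10 and -0.20 (SE 0.12 at each dose), none past the test. Bub1b, which encodes BubR1 and had no value in control replicate 4, changed by -0.56 ± 0.20 (adjusted P = 0.10) and the kinase Ttk by -0.34 at the high dose.

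The genes of the Cdk1 engine had a median high dose change of -0.41 over 6 genes, all below 0 and none called. Cdk1 itself, the kinase that drives entry into mitosis, had control levels from -0.03 to 1.10 and high dose levels from 0.06 to 1.31, and its changes of -0.11, 0.04 and -0.07 (SE 0.16) did not pass. Ccnb2 had control levels of 1.45, 1.14, 1.11, 1.02 and 0.98, the highest mean of all members by brightest probe against the reference pool, and medium dose levels of 0.93, 0.88, 0.77, 0.82 and 0.86, which did not overlap them. Its high dose levels ran from 0.49 to 1.11, and the change was -0.08, -0.29 and -0.41 ± 0.11 from low to high dose (adjusted P = 0.023 at the high dose, 1.33-fold). Ccna2 changed by -0.41 ± 0.12 at the high dose (adjusted P = 0.034), and Cdc25c, the phosphatase that switches Cdk1 on, by -0.53 ± 0.14 (adjusted P = 0.024, 1.44-fold). Ccnb1 ran from -0.44 to 0.35 in the controls and from -0.37 to -0.07 in 5 high dose arrays, and its changes of 0.19, -0.05 and -0.19 (SE 0.21 at each dose) did not pass.

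Foxm1, the transcription factor of late cell cycle genes, changed by -0.55 ± 0.20 at the low dose (adjusted P = 0.16), -0.26 at the medium dose and -0.41 ± 0.20 at the high dose (adjusted P = 0.30). Its low dose value rested in part on low dose replicate 4, at -2.02 where the remaining low dose arrays lay between -0.34 and 0.28, and was -0.26 without it. Among the kinases of centrosome and mitotic entry, Plk1, which acts at centrosomes and kinetochores, ran from 0.48 to 1.07 in the controls and from 0.64 to 0.85 at the high dose, with changes of 0.09, -0.04 and -0.09 ± 0.10. Aurka, the centrosome kinase, had positive changes of 0.59 ± 0.23, 0.35 ± 0.23 and 0.38 ± 0.23, with adjusted P of 0.22, 0.54 and 0.43, levels from -0.74 to 0.33 in the controls and 0.03 to 0.79 at the high dose, and no value on 1 low dose array. Its low dose change was 0.23 without low dose replicate 6. Nek2, a kinase of centrosome separation, changed by -0.20 at the high dose.

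In the chromosomal passenger complex, which corrects wrong attachments of microtubules, no gene was called. Birc5, the survivin gene, ran by its brightest probe from -0.21 to 0.55 in the controls and from -0.11 to 0.42 at the high dose. This probe changed by -0.10, 0.12 and -0.01 (SE 0.09 to 0.10). The other detected Birc5 probes had means of 0.41 and 0.18 in the controls and 0.16 and -0.02 at the high dose. The lowest high dose change of the 3 probes was -0.22. Incenp, the scaffold of the complex, changed by 0.12 at the high dose. The Aurkb probe was detected on 6 of the 22 arrays, 2 of them controls and none at the high dose, and 4 of these 6 spots were marked as outliers and left out, among them the brightest at 26.6 times the negative control level. Its changes of -0.14, -0.08 and -0.09 come from 18 arrays, and the low dose change was -3.15 (adjusted P = 0.12) with the ratio of the scanner software.

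Motor and microtubule proteins of the spindle had a median high dose change of -0.22 over 8 genes. Nusap1, which bundles spindle microtubules, was the only one of the 8 to pass the adjusted P at any dose, at -0.43 ± 0.13 (adjusted P = 0.042, 1.35-fold), from control levels of -0.76, -0.32, -0.17, -0.25 and -0.03 to high dose levels between -0.87 and -0.47. The bipolar spindle motor Kif11 changed by -0.33, the depolymerase Kif2c by -0.19, Kif18a by 0.08, the spindle assembly factor Tpx2 by 0.05, Ckap2 by -0.25 and Kif4 by -0.09. Hmmr stood lowest of all members by brightest probe against the reference pool, at -2.68 ± 0.32 (SD, n = 5) in the controls, and changed by -0.25.

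The genes of central spindle and cytokinesis went both ways without a call. Prc1, which cross-links microtubules of the central spindle, ran from 0.15 to 0.35 in the controls and from 0.28 to 0.93 at the high dose, with changes of 0.37, 0.22 and 0.32 ± 0.13 (adjusted P = 0.14 at the high dose). Racgap1, part of centralspindlin, changed by 0.27 (adjusted P = 0.22), while its partner Kif23 changed by -0.05. Kif20a changed by -0.38, Ect2, which is needed for cytokinesis, by -0.35 and the cleavage furrow protein Anln by -0.28, with adjusted P of 0.18, 0.15 and 0.16.

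Around the anaphase promoting complex, Cdc20, its mitotic activator, ran from -0.81 to -0.34 in 4 controls and from -0.48 to 0.27 in 5 high dose arrays, with changes of 0.21, 0.03 and 0.29 ± 0.16 (adjusted P = 0.37). Ube2c, its ubiquitin carrier enzyme, changed by 0.05, Pttg1, the securin gene, by -0.21, and Espl1, which encodes separase, by 0.01. A second Pttg1 probe gave -0.41 ± 0.10 (adjusted P = 0.013), under 1.5-fold. Top2a, which untangles sister chromosomes, ran from 0.01 to 0.25 in the controls and from -0.30 to 0.09 at the high dose, with changes of -0.18, -0.23 and -0.25 ± 0.11 (adjusted P = 0.22). Mki67, the common marker of dividing cells, ran from -1.03 to -0.47 in the controls and from -1.16 to -0.73 at the high dose, and its changes of -0.04, -0.15 and -0.26 ± 0.08 had adjusted P of 0.88, 0.47 and 0.063.

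No member was called between doses. In all genes 0% were called in either direction for medium against low dose and for high against medium dose, and 0.379% lower and 0.0842% higher for high against low dose. At an unadjusted P under 0.05, 8 members (18.2%) differed between high and low dose, 4 (9.09%) between high and medium dose and 2 (4.55%) between medium and low dose. Over all detected genes these shares were 14.9%, 5.47% and 8.71%. For Nuf2 the high dose was lower than the low dose by 0.41 (adjusted P = 0.15), and for Spc24 by 0.33 (adjusted P = 0.25), so the larger values at the high dose were not separated from those at lower doses by this test.

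In all, 13 members had more than 1 probe. Apart from Nuf2, where the second probe was not detected, the largest distances between the high dose changes of probes of a gene were 0.25 for Ccnb1, 0.21 for Birc5 and 0.20 for Pttg1. After group and slide were removed, pairs of members correlated across the 22 arrays with a mean r of 0.10 over the 37 members measured on every array, beside 0.0033 over 13701 genes, and the pairs ranged from -0.84 to 0.89. The arrays share dye, reference and slides, and the correlation is a description.

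The wider pathway was read from lists of related genes, whose counts stand beside the shares of all genes given above (3.06%, 4.68% and 6.44% called lower and 2.21%, 4.29% and 5.47% higher from low to high dose). Of 32 other kinetochore and checkpoint genes, 0 were called at the low dose and 1 lower at the medium and at the high dose, which was Cenpm of the inner kinetochore (-0.66 ± 0.19, adjusted P = 0.032 at the high dose). The 17 genes of the anaphase promoting complex and the 19 of condensin and cohesin had no call at any dose. Of 33 other spindle, centrosome and cytokinesis genes, 0, 1 and 2 were called lower at the low, medium and high dose. At the high dose they were Cdca3, which triggers the loss of a mitosis inhibitor (-0.89 ± 0.13, adjusted P = 9.3e-05), and the augmin subunit Haus7 (-0.66 ± 0.10, adjusted P = 0.00016). The median high dose changes of these 4 lists lay between -0.08 and -0.04, beside -0.21 for the members.

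Of 31 genes that regulate or partner the cyclin-dependent kinases, 2, 3 and 4 were called lower and 0, 0 and 1 higher from low to high dose, counts of a few genes that were not tested against the array as a whole. Cdkn2d and Cdkn2c, inhibitors of the G1 cyclin-dependent kinases, fell by 1.52 ± 0.15 (adjusted P = 1.2e-06) and 1.19 ± 0.20 (adjusted P = 0.00078) at the high dose. The D cyclin gene Ccnd3 fell by 0.71 ± 0.10 (adjusted P = 4.3e-05), and Cdkn1a, which encodes the inhibitor p21, rose by 0.66 ± 0.15 (adjusted P = 0.0081). Of 24 E2F, DREAM and MMB regulators, 1, 0 and 1 were called lower and 1, 1 and 2 higher. At the high dose Myc rose by 1.45 ± 0.16 (adjusted P = 2.6e-06), Mybl2, the gene of B-Myb, rose by 0.70 ± 0.11 (adjusted P = 0.00022), and the pocket protein gene Rbl2 fell by 0.81 ± 0.23 (adjusted P = 0.038).

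The arrays detected 42.5% to 70.3% of probes, and slide 2 had 3.94% to 6.22% of spots marked as outliers, above the 2.51% that was the highest on the other slides. Members without a value were found on slides 2 and 3 alike, where each array measured 41 to 43 of the 44. The labelled epithelial type was checked on its markers. Krt8, Krt18 and Krt7 were detected on all 22 arrays, but Krt19 on 21, Cldn4 on 16, Epcam on 10 and Cdh1 on 0. The mesenchymal markers Vim, Cdh2, Col1a1, Col1a2, Col3a1 and Acta2 were detected on all 22. In the controls Krt8, Krt18 and Krt19 stood far below the reference, at log2 ratios of -4.35, -5.62 and -4.91, and Krt7 at -0.31. Control median Cy5 signals were 223 for Krt8 and 913 for Krt18, beside 62640 for Vim. At the high dose 3 of the 6 mesenchymal markers (Col1a1, Col1a2 and Col3a1) and 1 of the 7 epithelial markers (Krt7) were called lower, and 0 of 4 immune, 0 of 3 endothelial and 0 of 4 alveolar and club cell markers were called. The summed ratio of the mesenchymal markers to the reference ran from 12.2 to 15.6 in the controls and from 5.98 to 9.80 at the high dose, where the changes of Vim (0.14) and Cdh2 (0.04) were above 0 and that of Acta2 was -0.70. That of the epithelial markers ran from 2.79 to 3.79 and from 2.24 to 2.80, and that of the alveolar and club cell markers from 3.45 to 4.00 and from 4.18 to 6.89, with Sftpa1 detected on 0 arrays. Both of these sums include spots near the floor. Control median Cy5 signals were 68 for Cdh1, 98.5 for Cldn4, 87 for Sftpc, 70 for Sftpa1, 112 for Scgb1a1 and 112 for Aqp5. The negative control level ran from 74.9 to 119 on the control arrays. The higher alveolar and club cell sum is therefore not read as a gain. The part of the cell type markers in the changes of Nuf2 and Spc24 was not tested.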

How the data were processed

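The deposited scanner files hold the median Cy5 and Cy3 intensity of each spot and its local background, which the authors extracted on 22 arrays of 62976 spots without normalization. They also hold the log10 ratio of the scanner software, and the series matrix of the authors gives log2 values they had processed. Both were used as alternatives only. Control spots were left out, outlier spots became missing values, and loess within each array normalised log2(Cy5/Cy3), with no background subtracted. A probe was detected above the 5% trimmed mean plus 3 trimmed SDs of 308 negative control spots. Accessions were matched to RefSeq symbols for 26413 of 55681 probes, and the brightest probe stood for a gene.

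The tests used limma 3.58.1 (R 4.3.3), with group and slide over all 22 arrays, prior degrees of freedom 5.51 and Benjamini-Hochberg adjustment over all probes, and the code was tested on simulated data. Deviations of same-numbered arrays from their group means correlated at 0.19 to 0.84 in all 31 pairs. In 27 of these pairs both arrays shared a slide (median r 0.56), and in 4 they did not (median r 0.46). Pairs with different numbers on a shared slide had a median r of 0.29 (16 pairs). Sample number and slide are therefore largely not told apart. Signal is not a count, so the number of arrays limits the precision. Apart from the slide or block term, every SE, interval and P takes the arrays as independent. Arrays that share an exposure experiment may not be, so the intervals may be too narrow. Members and lists were chosen with earlier results of these data known. Named in full were called members and Cdk1, Ccnb1, Plk1, Aurka, Aurkb, Bub1, Cdc20, Birc5, Top2a, Mki67 and Foxm1, and other names were added after their values were seen.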

Additional observations from a re-analysis of the deposited data

Results flagged for a closer look

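Across the 4 groups, 180 sets of 4 to 6 arrays were searched for an array far from the others, and 9 were found, where chance flags about 1 in 20. On slide 1 these were Cdk1 in high dose replicate 1 (1.31, next 0.34), Mad2l1 in high dose replicate 1 (0.91, next 0.19), Spc25 in control replicate 1 (0.74, next 0.23), Ckap2 in control replicate 1 (0.40, next 0.84), Kif2c in medium dose replicate 1 (-1.24, next -0.70) and the median of the members in medium dose replicate 1 (-0.10, next 0.05), all as log2 ratios. On slide 2 they were Foxm1 and Kif4, both in low dose replicate 4, at -2.02 (next -0.34) and 1.85 (next -0.15). Aurkb in control replicate 5 on slide 4 (-0.20, next 0.07) came from a probe that was mostly not detected.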

How the results depend on the processing

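The high dose calls of Nuf2 and Spc24 held under all 37 alternatives to the model, the values or the arrays, with changes of -1.09 to -0.89 and -0.89 to -0.69. The low dose count of 1 went to 0 with no slide term, the replicate block, median centring, the authors' series matrix, slide 1 or slide 4 left out, low dose replicate 1 and medium dose replicate 2 left out together, and a 2-fold limit, and to 3 with no fold limit. The medium dose count of 1 went to 0 with median centring and with a 2-fold limit, and to 2 with no fold limit. The high dose count of 2 was 7 with no fold limit and 1 with a 2-fold limit. Leaving out 1 array at a time gave counts of 0 to 1 for the low dose, 1 to 2 for the medium dose (Mad2l1 added without control replicate 4) and 2 to 4 at the high dose (Bub1b and Mad2l1 added without low dose replicate 4). Pairing by sample number, the replicate block, gave 0, 1 and 3 calls (Mad2l1 added at the high dose), and changed no other call at the 1.5-fold limit. Between doses 0 members were called under any alternative.

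Median centring in place of loess moved the median of all genes by -0.11 at the low dose, and the members' median went to -0.23 at that dose and to -0.028 at the medium dose. Without slide 1 the high dose median was -0.27. Small changes that were not called turned sign: with median centring Aurkb (0.35, 0.33 and 0.39 from low to high dose), Ccnb1 (0.046 at the medium dose) and Plk1 (-0.060 low, 0.070 medium). Without slide 1 these were Aurkb (0.068 medium, 0.11 high), Birc5 (0.041 high) and Bub1 (0.027 medium). Without slide 2 they were Birc5 (0.0046 high) and Cdc20 (-0.021 medium), without slide 3 Ccnb1 (0.026 medium) and Plk1 (0.024 medium), without slide 4 Ccnb1 (-0.033 low) and Cdk1 (-0.12 medium), and without slide 5 or with the compared groups only Birc5 (0.017 high). The scanner ratio turned Ccnb1 (0.015) and Cdk1 (-0.10) at the medium dose, the series matrix Birc5 (0.0072 high) and Mki67 (0.016 low), the replicate block Birc5 (0.0047 high), and the mean of a gene's probes Ccnb1 (-0.083 low, 0.042 medium) and Cdk1 (0.092 low). Leaving out 1 array gave -0.073 to 0.028 for Birc5 and -0.20 to 0.044 for Cdk1 at the high dose, -0.13 to 0.089 for Ccnb1, -0.036 to 0.080 for Cdc20, -0.078 to 0.10 for Cdk1 and -0.095 to 0.0080 for Plk1 at the medium dose, and -0.024 to 0.45 for Ccnb1 at the low dose. The causes were not tested.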
